A study of Mus musculus with 6 samples.

Results

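Genes for cohesin, CTCF and YY1, the proteins that fold the *Igh* locus, were examined in early LPre-B cells, the first large pre-B cells of the bone marrow, of *Upf1*-cKO and Ctrl mice. The 10 genes were chosen by name for their role in genome architecture (*Smc1a*, *Smc3*, *Rad21*, *Stag1*, *Stag2*, *Nipbl*, *Wapl*, *Pds5b*, *Ctcf* and *Yy1*), and all 10 had a row among the 13426 genes of the table. At this stage of normal development V segments of the immunoglobulin heavy chain (*Igh*) locus are being joined to a rearranged DJ unit. Ctrl cells were *Upf1* Flox/Flox, *Mb1* +/+, and *Upf1*-cKO cells were *Upf1* Flox/Flox, *Mb1* Cre/+, with 3 libraries per group. Both groups thus carried the floxed *Upf1* alleles, and Cre was expressed in the B lineage from 1 *Cd79a* (*Mb1*) allele in the cKO group alone. Ctrl mice had no Cre, so an effect of Cre or of the altered *Cd79a* locus cannot be told apart from that of the *Upf1* deletion. Per the study's methods, the mice were age-matched adults of both sexes on a C57BL/6 background, and cells were sorted as lineage-negative (CD11b and CD3e among others) B220+ CD43+ cells without surface IgM or CD2 and with high forward scatter.

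Cohesin is a ring of SMC1A, SMC3 and RAD21, with STAG1 or STAG2 bound to RAD21. NIPBL loads the ring and drives it along DNA so that loops are extruded, CTCF bound to DNA in the right orientation stops it, WAPL opens the ring and releases it, and PDS5 proteins assist in release and in pausing. At *Igh*, the distal V segments lie far from the recombination centre, and loop extrusion together with the contraction of the locus brings them near. YY1 and the B lineage factor PAX5 are needed for that contraction, and PAX5 is known to repress *Wapl* in pro-B cells through Polycomb repressive complex 2 (PRC2), which lengthens the loops.

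Recovered reads totalled between 9732498 and 11006834 per library, and the 10 genes had between 297 and 6569 reads each in a library. *Upf1* itself was not lower in the libraries labelled *Upf1*-cKO. Its normalised reads, which are reads per 1000000 after the scaling by the authors, were 260.0, 203 and 259 in Ctrl and 308, 283 and 299.7 in *Upf1*-cKO libraries, with an adjusted p of 0.00696 for the log2 fold change of 0.31 ± 0.09 (SE). It was not past the threshold with eBayes without trend (adjusted p 0.0685), with median centring (0.20, adjusted p 0.0645) or with the length and GC trend removed (0.13, adjusted p 0.216), and it was 0.19 without Ctrl replicate 2. Reads from retained and deleted exons enter the same row, so directions below are those of the labels. All 15 markers used for B lineage progenitors had a row, with a summed level of 3983 to 4128 normalised reads in Ctrl and 3240.3 to 3411 in *Upf1*-cKO libraries. Of the 15, 4 were lower and 6 were higher, and the higher genes included *Kit* (8.70 to 39.2), *Dntt* (170.3 to 527) and *Rag1* (71.4 to 208). The lower genes were *Cd24a*, *Il7r* (342 to 224), *Ptprc* (277 to 154) and *Cd79a* (221 to 73.3), the locus that carries Cre in the *Upf1*-cKO group. These counts stand beside 25.0% of all genes lower and 27.7% higher at an adjusted p below 0.05. Without *Cd24a*, which went from a mean of 1322 to 345, the sum was 2656 to 2897 in Ctrl and 2906 to 3079 in *Upf1*-cKO libraries. Of 10 markers of neutrophils, all with a row and none at 0, 4 were higher and 0 were lower, and their sum was 15.2 to 124 in Ctrl and 331 to 465 in *Upf1*-cKO libraries, although the gate excludes CD11b+ cells. Their part in the results was not tested. Other marker sums were 58.9 to 93.0 against 78.8 to 107 for macrophages and monocytes (5 of 6 with a row), 72.1 to 88.5 against 52.7 to 66.0 for plasma cells (4 of 5), 85.5 to 98.0 against 95.4 to 104 for erythroid cells (4 of 8, with no row for the globin genes), 140.1 to 151 against 175.0 to 189 for plasmacytoid dendritic cells (4 of 4) and 1.17 to 1.59 against 3.79 to 5.27 for NK cells (2 of 5). For T cells only *Thy1* of 7 markers had a row, at 3.82 to 7.83 against 7.88 to 11.9. *Cd2*, which the sort excludes, had 1.84 to 4.09 in Ctrl and 0.379 to 0.947 in *Upf1*-cKO libraries.

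Among the 10 genes, *Wapl*, *Rad21*, *Ctcf* and *Stag2* were lower in *Upf1*-cKO cells and 0 were higher, at an adjusted p below 0.05 in limma on log2(value + 1) over all genes. By this rule 25.0% of all genes were lower and 27.7% were higher, which is the background for the 4 of 10 lower genes. At an unadjusted p below 0.05, *Stag1* was higher as well (p 0.0385 in limma, n = 3 per group), and DESeq2 and edgeR on the recovered reads also called 0 of the 10 higher. The groups did not overlap, with *Upf1*-cKO lower, for the same 4 genes, against 28.0% of all genes, and with *Upf1*-cKO higher for *Stag1*, against 30.9% of all genes. The median log2 fold change of the 10 genes was -0.22, beside 0.01 for all 13426 genes. With each library scaled to its total reads, which moved the median of all genes to 0.19, 2 of the 10 were lower (*Wapl* and *Rad21*) and 3 were higher (*Stag1*, *Pds5b* and *Yy1*), beside 14.4% and 38.5% of all genes under that scaling. After quantile normalization 3 were lower (*Wapl*, *Rad21* and *Ctcf*) and 2 were higher (*Stag1* and *Pds5b*), beside 27.9% and 24.8% of all genes. Without Ctrl replicate 1, the Ctrl library with the most neutrophil marker reads, 4 of the 10 were lower and 1 was higher. In that fit 3350 of all 13426 genes were lower and 3643 were higher. In bulk libraries a lower level can reflect fewer cells with the transcript or less of it per cell, which cannot be told apart.

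**Figure D1:**
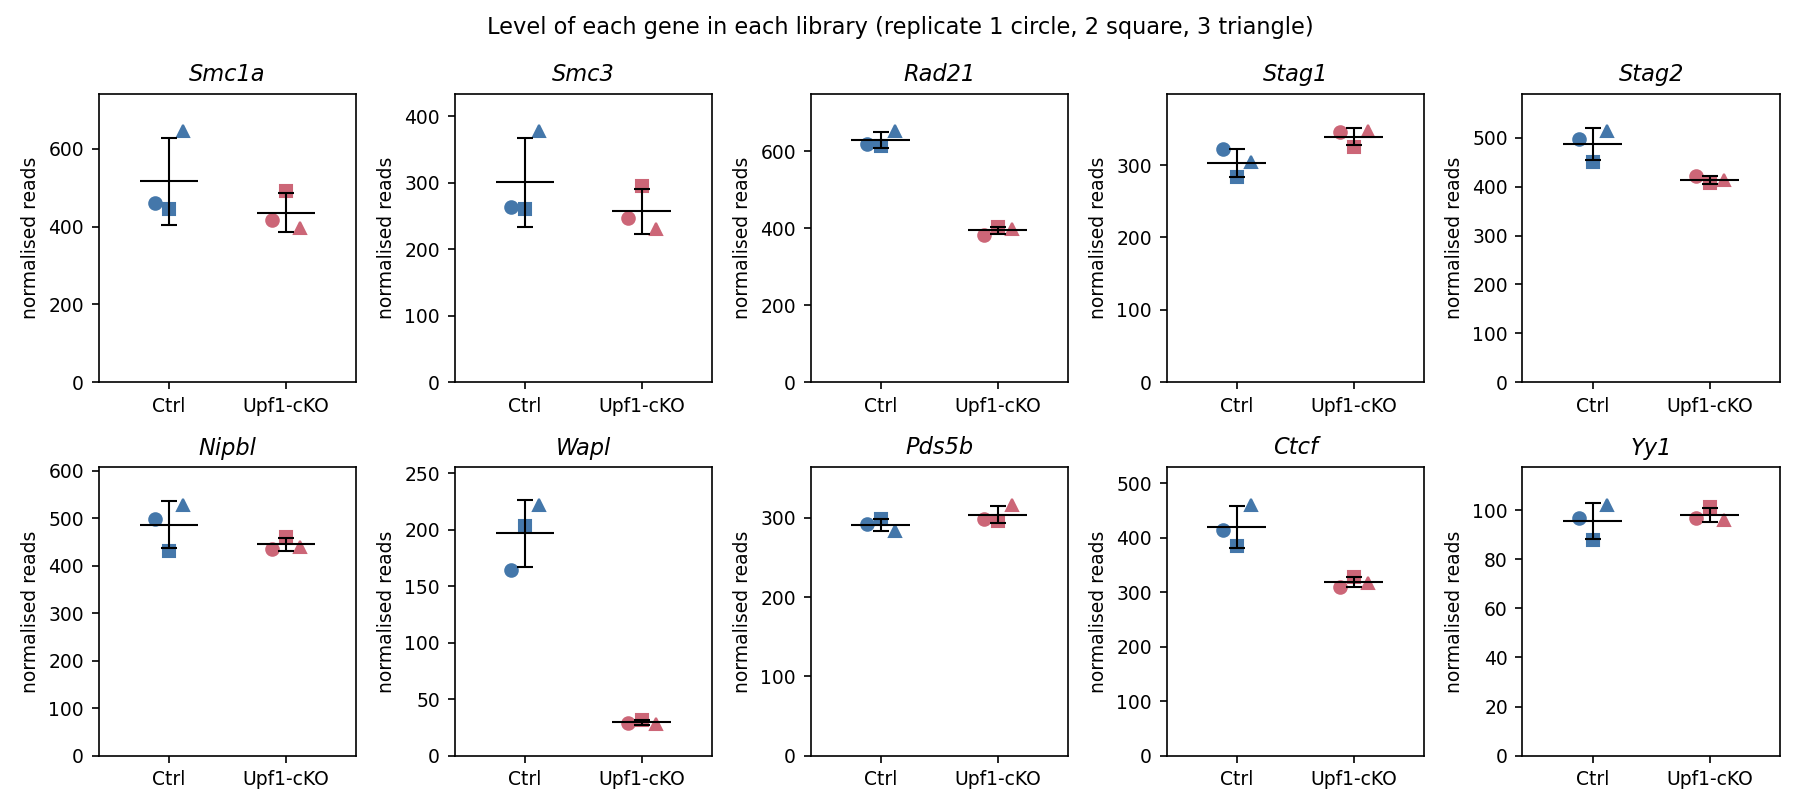
Normalised reads (y axis, from 0) of each of the 10 genes in the 3 Ctrl and 3 *Upf1*-cKO libraries, with the mean and SD in black. *Wapl* lies between 165 and 222 in Ctrl and between 27.8 and 31.4 in *Upf1*-cKO libraries, while the points of *Yy1* overlap between the groups, and Ctrl replicate 3 is the highest library for *Smc1a* and *Smc3*.

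The release factor *Wapl* had the largest fold difference of the 10. *Wapl* (Entrez ID 218914, chromosome 14, 34672379 to 34747983, GRCm38, plus strand) had 165, 203 and 222 normalised reads in Ctrl libraries 1, 2 and 3, and 29.0, 31.4 and 27.8 in *Upf1*-cKO libraries 1, 2 and 3. The lowest Ctrl library was far above the highest *Upf1*-cKO library, and the spread within *Upf1*-cKO was small. The mean fell from 197 ± 29.3 to 29.4 ± 1.85 (SD, n = 3 per group), to 14.9% of the Ctrl level. The log2 fold change was -2.69 (SE 0.10, 95% interval -2.91 to -2.48, adjusted p 4.35e-13 in limma). These values rest on 1550 to 2238 reads per Ctrl library and 297 to 348 per *Upf1*-cKO library. Of the 13426 genes, 23 had a lower fitted log2 fold change than *Wapl*. Across the 19 alternative settings the *Wapl* value ran from -2.81 to -2.49, and all of them kept it past the threshold. Ctrl replicate 1, the Ctrl library with the highest sum of neutrophil markers, had the lowest *Wapl* level of the Ctrl group, and without it the log2 fold change was -2.81. At its start *Wapl* overlaps the long non-coding RNA gene *5830448L01Rik*, which has no row, and reads were mapped without strand.

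The promoters of *Wapl* and *Ctcf* are printed because these are the genes with lower levels for which RefSeq sequence (GRCm38.p6) was at hand. Of the 10 genes, 7 had an entry, and *Rad21*, *Stag2* and *Nipbl* did not. Each line holds the 250 bases before an annotated start, 5′ to 3′ on the plus strand. The *Wapl* line is chr14:34673678-34673927, inside the outer bounds of the gene. The *Ctcf* line is chr8:105636288-105636537, and its end lies inside the outer bounds of *Ctcf*, which begin at 105636474. Capitals mark matches on either strand to the letters CCAAT (the CCAAT box, bound by NF-Y), CCGGAAG (an ETS core), GCGCGAA (an E2F core), GATGGCG (a YY1 core) or AGGGGGC (a CTCF core).
Wapl: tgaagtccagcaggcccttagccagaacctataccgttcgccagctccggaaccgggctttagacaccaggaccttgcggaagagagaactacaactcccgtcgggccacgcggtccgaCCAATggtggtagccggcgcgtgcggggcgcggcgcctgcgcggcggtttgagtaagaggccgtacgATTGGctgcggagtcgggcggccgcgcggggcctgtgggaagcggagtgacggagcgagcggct
Ctcf: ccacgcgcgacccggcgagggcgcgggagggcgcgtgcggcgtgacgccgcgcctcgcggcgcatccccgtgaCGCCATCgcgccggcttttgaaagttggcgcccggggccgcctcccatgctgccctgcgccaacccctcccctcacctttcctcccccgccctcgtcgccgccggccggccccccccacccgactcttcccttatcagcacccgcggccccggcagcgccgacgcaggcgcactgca

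The *Wapl* window held 2 CCAAT matches, starting 131 and 64 bases before the annotated start, on opposite strands. A CCAAT match on either strand was present in 34.5% of 27025 promoter windows of the same length. The *Ctcf* window held 1 YY1 core, starting 177 bases before the start, which 2.25% of windows hold. Windows of *Smc1a*, *Stag1* and *Pds5b* also held a CCAAT match, and those of *Pds5b* and *Yy1* held the CTCF core, which is in 9.29% of windows. No window of the 7 held the ETS core, in 7.05% of windows, or the E2F core, in 1.29%. Both printed windows are rich in G and C, at 67.6% for *Wapl* and 77.6% for *Ctcf*, with 32 and 40 CpG dinucleotides. A match to letters is a description of the sequence and not a binding site.

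Of the ring subunits, *Rad21* was lower and both SMC subunits were not called. *Rad21* (Entrez ID 19357, chromosome 15, 51962604 to 51993538), the kleisin that closes the ring and is cut by separase in mitosis, had 618, 614 and 652 normalised reads in Ctrl and 383, 403 and 397 in *Upf1*-cKO libraries. The groups lay far apart relative to their scatter. Its mean fell from 628 ± 20.9 to 394 ± 9.81 (SD, n = 3 per group), to 62.8% of the Ctrl level, and its log2 fold change was -0.67 ± 0.07 (SE), with an adjusted p of 1.64e-07. It stayed lower and past the threshold in all 19 alternatives, between -0.78 and -0.47. Its locus overlaps *Gm52217*, which has no row.

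*Smc1a* (Entrez ID 24061, chromosome X, 152016428 to 152061973) and *Smc3* (Entrez ID 13006, chromosome 19, 53600396 to 53645831), the coiled-coil ATPases of the ring, varied together from library to library, and their groups overlapped. *Smc1a* had 461, 444 and 645 normalised reads in Ctrl and 417, 492 and 397 in *Upf1*-cKO libraries. *Smc3* had 263, 261 and 377 in Ctrl and 246, 295 and 229.7 in *Upf1*-cKO libraries. For both genes Ctrl replicate 3 was the highest library, *Upf1*-cKO replicate 2 came next, and the order of all 6 libraries was the same. The log2 fold changes were -0.23 for *Smc1a* (95% interval -0.56 to 0.10, adjusted p 0.217) and -0.21 for *Smc3* (95% interval -0.57 to 0.14, adjusted p 0.285). Ctrl replicate 3 was 1.43-fold above the mean of the other Ctrl libraries for *Smc1a* and 1.44-fold for *Smc3*, and without it the log2 fold changes were -0.06 and -0.04. For the other 8 genes this ratio lay between 0.960 (*Pds5b*) and 1.21 (*Wapl*). Over all genes with a mean log2 value of at least 3, the deviations of Ctrl replicate 3 and *Upf1*-cKO replicate 2 from their group means had a correlation of 0.26 across genes, a description in which the genes are not independent.

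The paralogs STAG1 and STAG2, which bind the ring in alternative complexes, showed small differences of opposite sign. *Stag2* (Entrez ID 20843, chromosome X, 42149297 to 42277186) had 497, 450.4 and 514 normalised reads in Ctrl and 422, 407 and 414 in *Upf1*-cKO libraries, without overlap. Its mean went from 487 ± 32.7 to 414 ± 7.76 (SD, n = 3 per group), and the log2 fold change was -0.23 ± 0.07 (SE), with an adjusted p of 0.0114. *Stag1* (Entrez ID 20842, chromosome 9, 100597709 to 100958544) had 322, 283 and 304 in Ctrl and 346, 325 and 347 in *Upf1*-cKO libraries, also without overlap, and its log2 fold change of 0.16 (SE 0.07, 95% interval 0.01 to 0.32) did not pass the adjusted threshold (adjusted p 0.0689). Neither call was stable. *Stag2* was not past the threshold without *Upf1*-cKO replicate 2 (adjusted p 0.0574) or 3 (adjusted p 0.0501) or with eBayes without trend (adjusted p 0.0719), and it was near 0 after scaling to total reads (-0.03) or quantile normalization (-0.02), whereas *Stag1* passed without Ctrl replicate 1 (0.21, adjusted p 0.0162) and under both of those scalings.

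**Figure D2:**
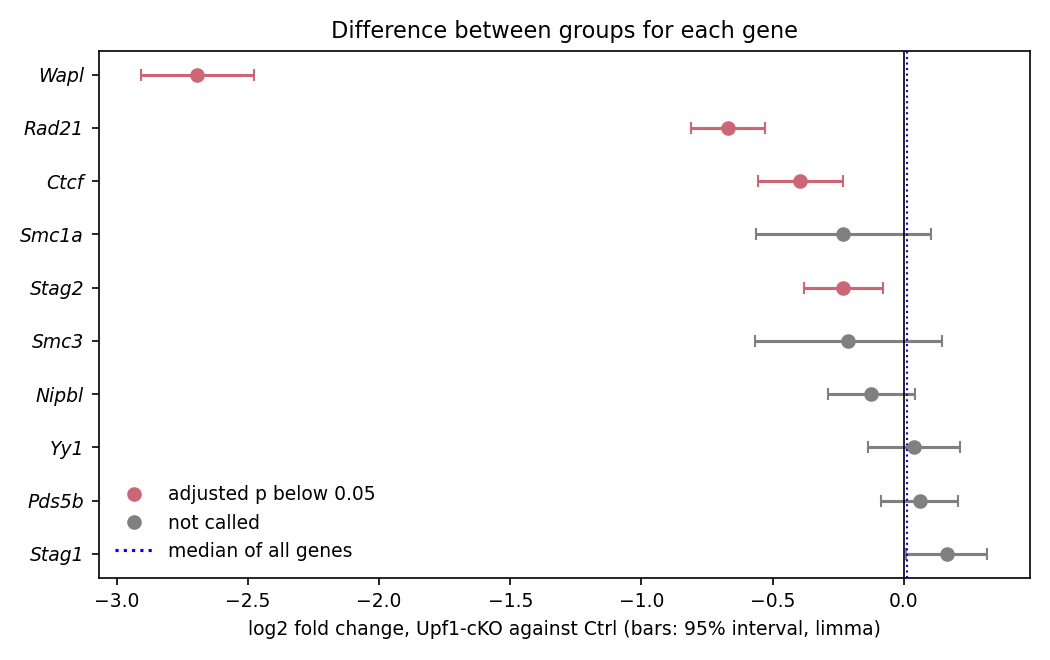
The log2 fold change of each gene (x axis, *Upf1*-cKO against Ctrl on the log2(value + 1) scale, with the 95% interval from limma), ordered by size. *Wapl* lies at -2.69, *Rad21* at -0.67, *Ctcf* at -0.39 and *Stag2* at -0.23, each with an adjusted p below 0.05, and the other 6 genes are not called.

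The loader *Nipbl* and the accessory subunit *Pds5b* were not called. *Nipbl* (Entrez ID 71175, chromosome 15, 8289824 to 8465315), which activates the ATPase of cohesin, had 499, 432 and 529 normalised reads in Ctrl and 435, 461 and 440.0 in *Upf1*-cKO libraries. The groups overlapped through Ctrl replicate 2, the lowest of the 6 libraries. The log2 fold change was -0.12 (95% interval -0.29 to 0.04, adjusted p 0.198). It was past the threshold without Ctrl replicate 2 (-0.21, adjusted p 0.0205) and with median centring (-0.23, adjusted p 0.0199). After scaling to total reads it was 0.08. *Mau2*, the partner of NIPBL in the loading complex, was higher, at 109 ± 10.5 in Ctrl and 132 ± 10.05 in *Upf1*-cKO libraries (SD, n = 3 per group), with a log2 fold change of 0.28 (adjusted p 0.0124). *Pds5b* (Entrez ID 100710, chromosome 5, 150673713 to 150810669) had 292, 299 and 283 in Ctrl and 299, 296 and 317 in *Upf1*-cKO libraries, a log2 fold change of 0.06 (95% interval -0.09 to 0.21, adjusted p 0.492). Its paralog *Pds5a* went from 509.7 ± 30.2 to 482 ± 4.43, a log2 fold change of -0.08 (95% interval -0.22 to 0.07, adjusted p 0.371).

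Of the DNA-binding factors, *Ctcf* was lower and *Yy1* was not called. *Ctcf* (Entrez ID 13018, chromosome 8, 105636474 to 105682922), the zinc finger protein at most loop anchors, had 414, 384 and 461 normalised reads in Ctrl and 309.8, 328 and 317 in *Upf1*-cKO libraries. The lowest Ctrl library was above the highest *Upf1*-cKO library. The mean went from 419.6 ± 38.5 to 318 ± 9.12 (SD, n = 3 per group), 75.8% of the Ctrl level, and the log2 fold change was -0.39 ± 0.08 (SE), with an adjusted p of 0.000284. After scaling to total reads it was -0.19 with an adjusted p of 0.0871, against a median of all genes of 0.19, and it passed the threshold in the other 18 alternatives. The locus overlaps 3 other annotated genes, of which *Gm5914* has a row, with a log2 fold change of -0.23 (adjusted p 0.352).

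*Yy1* (Entrez ID 22632, chromosome 12, 108792945 to 108820148), a zinc finger factor on the same chromosome as *Igh*, had 96.7, 87.9 and 102 normalised reads in Ctrl and 96.8, 101 and 95.9 in *Upf1*-cKO libraries. All 3 *Upf1*-cKO libraries fell within the range of the Ctrl libraries. The log2 fold change was 0.04 (95% interval -0.14 to 0.21, adjusted p 0.725). The interval leaves room for a change of up to about these bounds in either direction, and the value was 0.24 after scaling to total reads (adjusted p 0.0393), above a median of all genes of 0.19.

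Levels were then compared between genes after division by the length of the longest annotated coding transcript in GENCODE M21, as normalised reads per kb. In Ctrl cells *Rad21* was highest, at 159 ± 5.29 per kb (SD, n = 3), and no library of it overlapped the next genes. *Ctcf* (111 ± 10.2) and *Smc1a* (110.2 ± 23.8) followed and overlapped each other. *Stag2* (78.9 ± 5.30), *Smc3* (61.9 ± 13.7), *Nipbl* (51.7 ± 5.28) and *Stag1* (49.0 ± 3.12) formed a run in which each gene overlapped the next. *Pds5b* (39.3 ± 1.02), *Wapl* (31.0 ± 4.62) and *Yy1* (15.5 ± 1.17) came last, each apart from its neighbours. The order between genes assumes that the longest transcript is the form present, which was not tested. For *Yy1*, 4496 of its 6178 bases are 3′ untranslated region.

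In *Upf1*-cKO cells *Rad21* remained first at 99.7 ± 2.48 per kb (SD, n = 3), but its libraries overlapped those of *Smc1a* (92.9 ± 10.7), which in turn overlapped those of *Ctcf* (84.1 ± 2.41). *Stag2* was at 67.1 ± 1.26, and *Stag1* (54.9 ± 1.98), *Smc3* (52.9 ± 6.96) and *Nipbl* (47.3 ± 1.45) each overlapped the next. *Pds5b* was at 41.0 ± 1.48. The last ranks were exchanged, with *Yy1* at 15.9 ± 0.475 and *Wapl* at 4.63 ± 0.292, and these did not overlap.

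**Figure D3:**
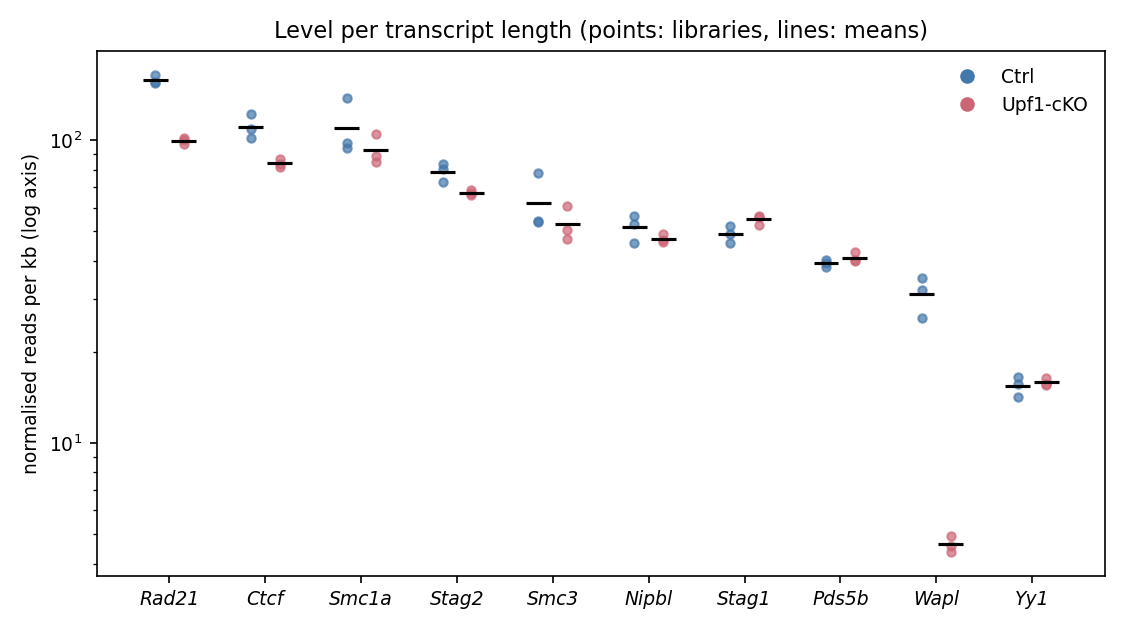
Normalised reads per kb of transcript (log axis) for the 10 genes, ordered by the Ctrl mean, with 1 point per library and lines at the means. *Wapl* goes from 31.0 in Ctrl to 4.63 in *Upf1*-cKO cells, below *Yy1*, while most other genes keep a similar place.

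Ratios of partners within each library do not depend on the scaling of the library, and they are given as a description without a test. The ratio of the loader to the release factor, *Nipbl* to *Wapl* per kb, was 2.04, 1.43 and 1.60 in Ctrl and 10.1, 9.88 and 10.7 in *Upf1*-cKO libraries. The mean ratio was thus 6.04 times as high in *Upf1*-cKO cells. The ratio of *Stag1* to *Stag2* was 0.647, 0.628 and 0.590 in Ctrl and 0.818, 0.798 and 0.837 in *Upf1*-cKO libraries, so that *Stag2* exceeded *Stag1* in every library and by less in the *Upf1*-cKO group, with no overlap.

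The ratio of *Smc1a* to *Smc3* lay between 1.76 and 1.81 in Ctrl and between 1.73 and 1.79 in *Upf1*-cKO libraries, although both genes varied between libraries. The ratio of *Rad21* to *Smc3* was 2.88, 2.89 and 2.12 in Ctrl and 1.91, 1.68 and 2.12 in *Upf1*-cKO libraries, and Ctrl replicate 3 and *Upf1*-cKO replicate 3 met at the same rounded value. The ratio of *Pds5a* to *Pds5b* overlapped between the groups, at 1.45 ± 0.107 in Ctrl and 1.32 ± 0.0584 in *Upf1*-cKO libraries (SD, n = 3 per group).

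**Figure D4:**
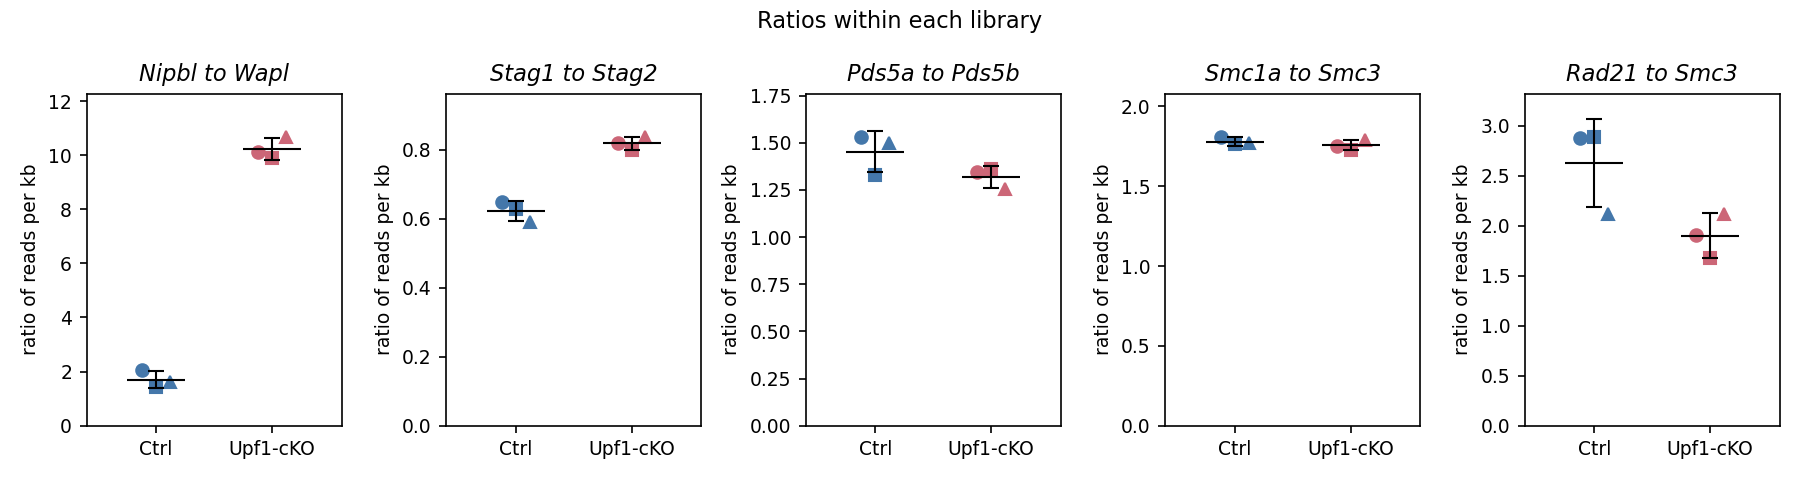
Ratios of normalised reads per kb (y axes, from 0) in each Ctrl and *Upf1*-cKO library, with the mean and SD. The mean of *Nipbl* to *Wapl* is 1.69 in Ctrl and 10.2 in *Upf1*-cKO, that of *Stag1* to *Stag2* is 0.622 and 0.818, both with no overlap, and that of *Smc1a* to *Smc3* is 1.78 and 1.76 with overlap.

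The 10 genes share features of structure that their choice by name did not use. Their longest coding transcripts ran from 3782 bases (*Ctcf*) to 9423 bases (*Nipbl*), all above the median of 3112 bases over 11959 coding genes of the table, and their exons numbered from 5 (*Yy1*) to 47 (*Nipbl*) against a median of 9. GC content was between 38.1% (*Stag2*) and 50.7% (*Yy1*), and was below the median of 50.2% in 9 of 10. The 3′ untranslated region, a feature of some transcripts that UPF1 acts on, ran from 611 bases in *Nipbl* to 4496 bases in *Yy1*, with 2296 bases in *Wapl*, against a median of 1118. Transcripts annotated as targets of nonsense-mediated decay (NMD) exist for *Stag1* (3 of 17 transcripts) and *Smc1a* (1 of 6) alone among the 10, and for 29.4% of the 11959 genes. With a spline in length and GC content subtracted, the log2 fold changes of *Wapl*, *Rad21*, *Ctcf* and *Stag2* were -2.74, -0.76, -0.50 and -0.25, each past the threshold, and *Nipbl* also passed at -0.21 (adjusted p 0.0156). In all, 7 of the 10 loci overlap another annotated gene, and mapping was without strand, so reads from such pairs may not be told apart.

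Genes that act with cohesin through the cell cycle were next compared as a list. Of 22 listed, 20 had a row, 11 were lower and 3 were higher in *Upf1*-cKO cells, beside 25.0% and 27.7% of all genes, with a median log2 fold change of -0.34 beside 0.01 for all genes. *Timeless*, a component of the replication fork that aids cohesion, was lower, at 231 ± 3.77 in Ctrl and 123 ± 5.04 in *Upf1*-cKO libraries (SD, n = 3 per group), with a log2 fold change of -0.90 (adjusted p 1.01e-08). *Espl1*, which encodes separase, was at -0.58 (adjusted p 3.42e-06). The 3 higher genes were *Mau2*, *Ddx11* (0.82, adjusted p 2.91e-07), a helicase needed for cohesion, and *Stag3*, the paralog of *Stag1* and *Stag2* used in meiosis, which rose from a low level of 9.83 ± 2.05 to 23.9 ± 0.806 (log2 fold change 1.22, adjusted p 1.51e-06). Of these 3, *Mau2* had the smallest difference. The count of higher genes was 2 with eBayes without trend, with median centring and without *Upf1*-cKO replicate 3. Those fits called 3566, 2992 and 3224 of all 13426 genes higher. The meiotic subunits *Smc1b* and *Rad21l* had no row. After scaling to total reads 6 of the 20 were lower and 4 were higher, beside 14.4% and 38.5% of all genes.

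A list of condensin and the SMC5/6 complex, the other SMC machines, with *Smchd1* and the topoisomerase genes *Top2a* and *Top2b* added, had 19 of 19 genes in the table, of which 11 were lower and 1 was higher, beside 25.0% and 27.7% of all genes, with a median log2 fold change of -0.26. Both topoisomerase genes were among the lower ones (*Top2a* -0.37 and *Top2b* -0.19), and *Smchd1* was not called. The SMC5/6 subunits *Nsmce3* (-0.77, adjusted p 0.000141), *Nsmce1* (-0.73, adjusted p 2.54e-05) and *Nsmce4a* (-0.53, adjusted p 2e-05) fell, as did the condensin subunit *Ncaph* (-0.45, adjusted p 0.000102). *Smc5* (-0.05, adjusted p 0.643) and *Smc6* (-0.07, adjusted p 0.495) were not called, and neither were *Nsmce2*, *Slf1* and *Slf2*. The higher gene, named after its values were seen, was *Smc4*, an ATPase of condensin, with a log2 fold change of 0.44. After scaling to total reads 7 of the 19 were lower and 3 were higher, beside 14.4% and 38.5% of all genes.

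Of 27 listed partners of CTCF and YY1, 26 had a row, 7 were higher and 11 were lower, beside 27.7% and 25.0% of all genes, with a median log2 fold change of -0.07. The share of higher genes was thus near that of the whole table. *Ino80*, the ATPase of the INO80 remodelling complex with which YY1 associates, was higher, at 144 ± 3.58 in Ctrl and 299 ± 10.03 in *Upf1*-cKO libraries (SD, n = 3 per group), with a log2 fold change of 1.05 (adjusted p 1.13e-09). The INO80 subunit *Nfrkb* was also higher (0.82, adjusted p 6.01e-08), and *Mcrs1*, another subunit, was lower (-0.82, adjusted p 4.87e-06). *Yy2*, a retroposed relative of *Yy1*, rose from 16.0 ± 0.618 to 28.3 ± 1.88 (log2 fold change 0.78, adjusted p 2.01e-05). Sequence shared with *Yy1* could split reads between them. After scaling to total reads 6 of the 26 were lower and 9 were higher, beside 14.4% and 38.5% of all genes.

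The last list held transcription and chromatin factors of the B lineage that act on *Igh*. All 19 had a row, 12 were lower and 2 were higher, beside 25.0% and 27.7% of all genes, with a median log2 fold change of -0.33. *Pax5* was at 236 ± 24.2 in Ctrl and 216 ± 2.40 in *Upf1*-cKO libraries (SD, n = 3 per group), with a log2 fold change of -0.12 (95% interval -0.29 to 0.05, adjusted p 0.218). *Ikzf1*, which encodes Ikaros, fell from 1151 ± 37.9 to 473 ± 9.18, a log2 fold change of -1.28 (adjusted p 2.66e-11). Of the core subunits of PRC2, *Suz12* (-0.56, adjusted p 1.81e-06) and *Eed* (-0.52, adjusted p 0.000446, named after its value was seen) were lower, and *Ezh2*, the methyltransferase, was at -0.17 (95% interval -0.33 to -0.01, adjusted p 0.0697). *Spi1*, which encodes PU.1, was lower (-1.16, adjusted p 9.73e-07), as was *Cbx5*, which encodes a heterochromatin protein (-0.59, adjusted p 4.96e-07). The higher genes, named after their values were seen, were *Foxo1* (0.41) and *Med1* (0.25). Without Ctrl replicate 2, 1 gene of the list was higher, beside 3476 of all 13426 genes. After scaling to total reads 7 of the 19 were lower and 4 were higher, beside 14.4% and 38.5% of all genes.

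**Figure D5:**
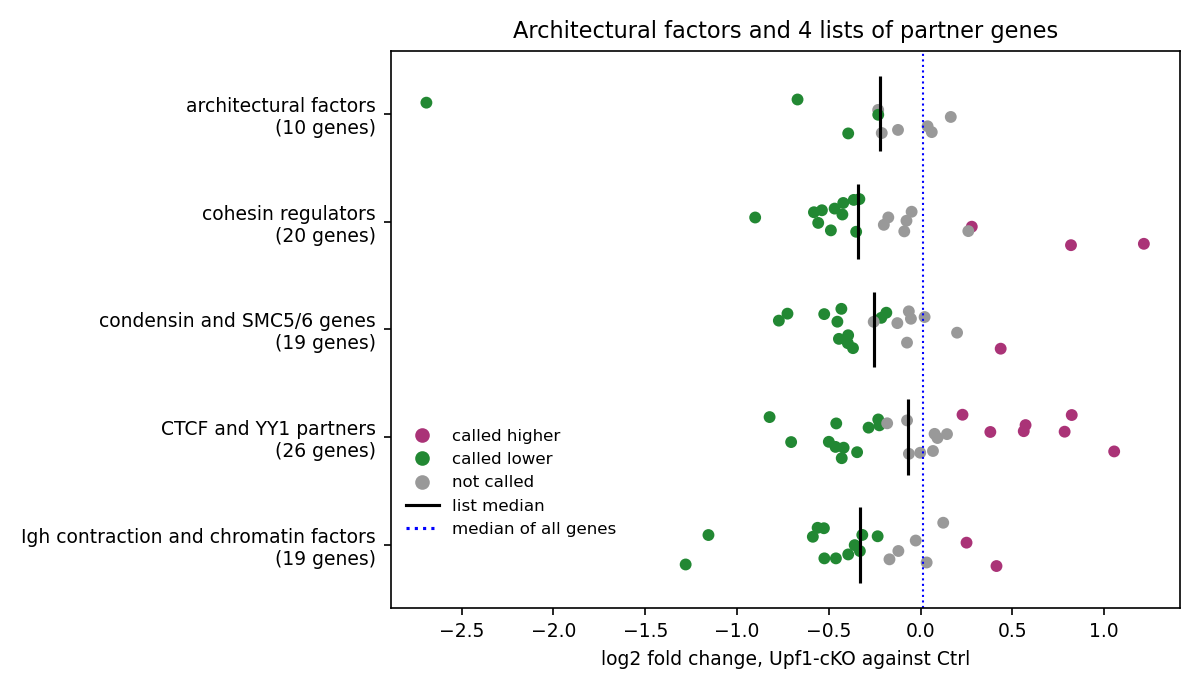
The log2 fold change (x axis) of every gene with a row in each list, coloured by call, with black lines at the list medians and a dotted line at the median of all genes (0.01). *Wapl*, at -2.69, lies to the left of every gene of the partner lists, the lowest of which is *Ikzf1* at -1.28.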

How the data were processed

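Groups and replicate numbers came from the sample labels. The submitters' processing notes name cutadapt 4.0, HISAT2, featureCounts 2.0.1 and limma 3.48.0, and the methods state rRNA depletion, single-end reads, mapping to mm10 without strand and counting per gene. The deposited table holds a linear signal for each Entrez ID, and the values fit reads plus 0.5 over an effective depth in units of 1000000. These are called normalised reads. Whole reads were recovered for 100% of values (tolerance 0.01 read). All 13426 genes exceeded 0.5 in at least 3 libraries. Symbols and coordinates came from RefSeq (GRCm38.p6), which named 13008 IDs. Transcript lengths came from GENCODE M21.

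limma 3.58.1 in R 4.3.3 was run on log2(value + 1) with eBayes (trend, robust), no covariate besides group, and p-values adjusted (Benjamini-Hochberg) over all 13426 genes. All adjusted p-values are from this fit unless another tool is named. Fold changes on this scale understate those of low genes. A script tested on simulated counts did the fit. The 10 genes, the lists and the tests were chosen with earlier results of these data known. All 10 genes and *Upf1* are named, and from each partner list at most 4 called genes with the largest absolute log2 fold change, plus *Mau2*, *Pds5a*, *Pax5*, *Ikzf1* and *Ezh2*. *Smc4*, *Smc5*, *Smc6*, *Nsmce2*, *Slf1*, *Slf2*, *Top2a*, *Top2b*, *Smchd1*, *Foxo1*, *Med1*, *Eed* and the markers *Cd24a*, *Kit*, *Dntt*, *Rag1*, *Il7r*, *Ptprc* and *Cd79a* were named after their values were seen. The B lineage marker list and its sum were used without 1 item, which is not reported here. Libraries of 1 group differed beyond sampling noise, with a chi-square over its degrees of freedom of 4.39 to 22.02. The largest values, 18.98 and 22.02, were those of Ctrl replicate 3 against the other Ctrl libraries. *Wapl*, *Rad21*, *Ctcf* and *Stag2* were each highest in Ctrl replicate 3, and each stayed past the threshold without it. The study states that its samples were independent biological replicates. Alternatives used edgeR 4.0.16, DESeq2 1.42.0 and voom on the recovered reads, other scalings, filters and pseudocounts, a replicate block, a trend on length and GC (lengths known for 90.5% of genes), and each library left out.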

Additional observations from a re-analysis of the deposited data

How the results depend on the processing

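Of the 10 genes, *Wapl*, *Rad21*, *Smc1a* and *Smc3* had the same sign and the same call in all 19 alternatives. Scaling to total reads gave 3 of the 10 genes higher and 2 lower, 6 cohesin regulators lower, 3 condensin and SMC5/6 genes higher and 7 lower, 6 CTCF and YY1 partners lower, 4 *Igh* contraction and chromatin factors higher and 7 lower, and 1936 of all genes lower. Under that scaling 38.5% of all genes were higher and 14.4% were lower. Quantile normalization gave 2 of the 10 genes higher and 3 lower, beside 24.8% and 27.9% of all genes, 7 condensin and SMC5/6 genes lower and 4 *Igh* factors higher. The count of higher *Igh* factors was 1 with eBayes without trend, with median centring and with the length and GC trend removed. In those fits 3566, 2992 and 3030 of all genes were higher. The cause of these moves was not tested. Values not past the threshold turned sign for *Yy1* (-0.0706 with median centring, -0.0915 with the length and GC trend removed), *Nipbl* (0.0801 after scaling to total reads and 0.0818 after quantile normalization) and *Pds5b* (-0.0480 with median centring).

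Leaving out each library gave 0 to 1 of the 10 genes higher, 3 to 5 lower, and 1 to 2 *Igh* factors higher. In those fits 3224 to 3643 of all 13426 genes were higher and 2867 to 3350 were lower. For *Yy1* these fits gave -0.0206 to 0.0868. With the replicate block, 0 of the 10 genes were higher and 4 were lower, beside 3668 and 3321 of all genes. Libraries with the same number did not deviate together (correlations 0.13, -0.06 and -0.08), and not every library correlated best with its own number. The numbers are therefore not taken as pairs in the main fit. The submitters' column labels do give neighbouring sample numbers to Ctrl and *Upf1*-cKO libraries of the same replicate number. With 3 libraries per group, correlations of deviations from group means cannot exclude pairs. With 3 libraries per group, the intervals of *Smc1a* and *Smc3* leave falls of about 0.56 on the log2 scale undetected.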
